A study of Mus musculus with 8 samples.

Results

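A set of 40 genes of DNA replication and mitosis was described in 8 RNA-seq libraries of mouse pancreatic tumours. The members were the rows of the deposited count table that carried the gene names of the set, and all 40 of 40 were found among 54532 genes. Of these, 16 belong to the replication programme (Mcm2 to Mcm7, Cdc6, Cdt1, Gins2, Pcna, Rrm1, Rrm2, Tyms, Ccnd1, Ccne1 and E2f1). The other 24 are mitotic (Mki67, Top2a, Ccna2, Ccnb1, Ccnb2, Cdk1, Foxm1, Aurka, Aurkb, Birc5, Plk1, Bub1, Bub1b, Ttk, Cdc20, Ube2c, Cenpe, Cenpf, Kif11, Kif20a, Kif23, Nusap1, Tpx2 and Prc1).

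The tumours grew in the pancreas of C57BL/6 mice from implanted KPC cells, a cultured line of mouse pancreatic ductal adenocarcinoma. Hosts received saline (4 libraries) or TLQP21 (4 libraries), a peptide cut from the neuropeptide precursor VGF, for 2 weeks. All libraries thus share the named cells (KPC) and the named mouse strain, and the labels give neither dose, age nor sex. Nothing in them states that each library is a mouse of its own. Every p-value is therefore a statement about the scatter of these 8 libraries, some of which could be technical. The study asked how TLQP21 slows the growth of such tumours. Tumour size was not analysed here.

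A dividing cell first copies its DNA and then separates the copies. Before S phase, Cdc6 and Cdt1 load the ring-shaped MCM helicase onto origins, the GINS complex joins the helicase at firing, and Pcna clamps the polymerases to the template. E2F transcription factors, released when cyclin D and cyclin E kinases phosphorylate the retinoblastoma protein, switch on many of these genes. Later, in G2 and M phase, B-MYB and FOXM1, acting with the MuvB complex, drive a second set of genes that carry the cell cycle genes homology region (CHR) in their promoters. In resting cells the DREAM complex represses genes of both sets. Transcripts of both sets are widely read as signs of proliferation in tumours.

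The libraries held 28358465 to 28963457 counts in Saline and 29027480 to 33536087 in TLQP21. Counts of members ran from 161 (Ccne1) to 15669 (Top2a) per library, and the 40 genes together took 0.273 to 0.389% of the counts in Saline and 0.316 to 0.404% in TLQP21. RNA came from whole tumours, although the labels name pancreatic cancer cells. Markers of tumour and ductal epithelium summed to 6035 to 6532 CPM (counts scaled to a common library total) in Saline and 6486 to 6805 in TLQP21. Markers of 10 other cell types, from fibroblasts to T cells, were present too, and no marker of any list was at 0 in any library. Fewer dividing cells and less RNA per dividing cell cannot be told apart in such data. Libraries 1 and 2 of each group held 9960 to 10625 Xist reads and 1 to 20 reads of Y-linked genes, whereas libraries 3 and 4 held 0 to 14 and 2027 to 2247. Both kinds were therefore equally represented in the treatment groups, and values within each kind are given below. Saline 2 stood apart in hepatocyte markers (4041 CPM, against 5.58 to 9.27 CPM elsewhere).

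Promoter sequences do not depend on the counts and are described first. RefSeq promoters (GRCm38.p6, 250 bases before to 50 bases after the start) were matched by symbol for 32 of 40 members, giving 14 promoters for 13 replication genes and 20 promoters for 19 mitotic genes. Searched on both strands were the E2F strings TTTCGCGC, TTTGGCGC, TTTCCCGC, TTCCCGCC, TTCGCGCC and TTGGCGCC, the CHR strings TTTGAA (canonical), TTTAAA (variant) and TTCGAA (variant), and the box named CCAAT, which is bound by the factor NF-Y. E2F strings overlap one another at some sites, so presence per promoter was counted rather than hits. An E2F string was found in 7 of 14 replication promoters (50%) and 2 of 20 mitotic promoters (10%), compared with 4.40% of 32851 mouse promoters. A CHR string was found in 19 of 20 mitotic promoters (95%), 5 of 14 replication promoters (35.7%) and 28.8% of all. CHR and CCAAT together occurred in 18 of 20 mitotic promoters (90%), 4 of 14 replication promoters (28.6%) and 11.3% of all. These are letter matches, described without a test, and were not measured as binding.

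Promoter stretches of 4 mitotic and 3 replication members show how the strings were placed. Those of Top2a (DNA topoisomerase II alpha, which untangles sister chromosomes) at chr11:99024190-99024339 (minus strand), Cdk1 (the kinase that drives mitotic entry) at chr10:69352939-69353062 (minus strand), Kif11 (the motor that pushes spindle poles apart) at chr19:37376232-37376381 (plus strand) and Cdc20 (an activator of the anaphase-promoting complex) at chr4:118437353-118437493 (minus strand) held CHR and CCAAT letters. Those of the helicase subunits Mcm6 at chr1:128359706-128359855 (minus strand) and Mcm5 at chr8:75109359-75109508 (plus strand) and of Rrm1 (a subunit of ribonucleotide reductase) at chr7:102441545-102441694 (plus strand) held E2F letters and CCAAT. Each is the genome sequence upstream of the counted gene, 5′ to 3′ on the strand of the gene, with matched strings of either strand in capitals.
Top2a: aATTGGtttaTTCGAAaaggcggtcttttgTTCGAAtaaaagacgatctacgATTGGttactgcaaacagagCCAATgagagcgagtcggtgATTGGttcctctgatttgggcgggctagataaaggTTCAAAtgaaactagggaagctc
Cdk1: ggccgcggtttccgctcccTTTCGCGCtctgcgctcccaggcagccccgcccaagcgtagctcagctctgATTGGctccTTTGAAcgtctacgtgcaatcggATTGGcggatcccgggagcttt
Kif11: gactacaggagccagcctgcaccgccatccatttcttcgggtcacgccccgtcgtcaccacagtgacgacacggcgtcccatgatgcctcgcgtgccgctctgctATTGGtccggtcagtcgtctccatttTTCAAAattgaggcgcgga
Cdc20: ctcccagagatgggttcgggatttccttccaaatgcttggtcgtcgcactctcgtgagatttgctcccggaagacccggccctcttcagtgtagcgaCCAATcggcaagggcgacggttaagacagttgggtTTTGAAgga
Mcm6: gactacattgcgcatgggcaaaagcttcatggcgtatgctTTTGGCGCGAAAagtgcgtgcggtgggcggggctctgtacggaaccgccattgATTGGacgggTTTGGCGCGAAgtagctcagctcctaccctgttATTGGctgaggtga
Mcm5: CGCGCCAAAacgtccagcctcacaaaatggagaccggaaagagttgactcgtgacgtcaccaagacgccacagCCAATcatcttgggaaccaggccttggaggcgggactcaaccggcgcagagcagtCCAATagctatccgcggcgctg
Rrm1: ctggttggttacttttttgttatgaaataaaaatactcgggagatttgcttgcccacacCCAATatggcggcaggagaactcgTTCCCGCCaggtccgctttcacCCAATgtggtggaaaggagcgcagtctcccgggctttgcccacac
In the Kif11 and Cdc20 stretches, 1 CHR string lay downstream of 1 CCAAT box. The Cdk1 stretch held an E2F string as well, and the Mcm6 and Rrm1 stretches no CHR string.

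Over all 8 libraries, every mitotic member had a TLQP21 mean above that of Saline, whereas the 16 replication members were divided. No single member passed the test. The fitted log2 fold change (TLQP21 over Saline) was above 0 for 24 of 24 mitotic members, with a median of 0.19 and a range of 0.049 to 0.31. It was above 0 for 9 and below 0 for 7 of 16 replication members, with a median of 0.015 and a range of -0.25 to 0.17. The contrast was not seen within both kinds of library. With Xist, 18 of 24 mitotic and 16 of 16 replication members were above 0, and with Y-linked transcripts 22 of 24 and 6 of 16. Of 45 other replication genes, described below, 36 were above 0. Leaving out Saline 2, TLQP21 3 or TLQP21 4 left 21 to 22 of 24 mitotic members above 0. Of all 18238 genes tested, 50.6% lay above 0, and their median was 0.0020. Members of a class vary together across libraries, so their number is not a number of independent observations. At an adjusted p of 0.05 in edgeR's quasi-likelihood test with Benjamini-Hochberg adjustment, 0 of 40 members and 0 of 18238 genes (0%) were called. The adjusted p of each member was 0.9999, and the smallest over all genes was 0.238. At an unadjusted p under 0.05, 558 genes were counted, and DESeq2 called 4 genes, none of them a member, with 745 at an unadjusted p under 0.05.

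**Figure D1:**
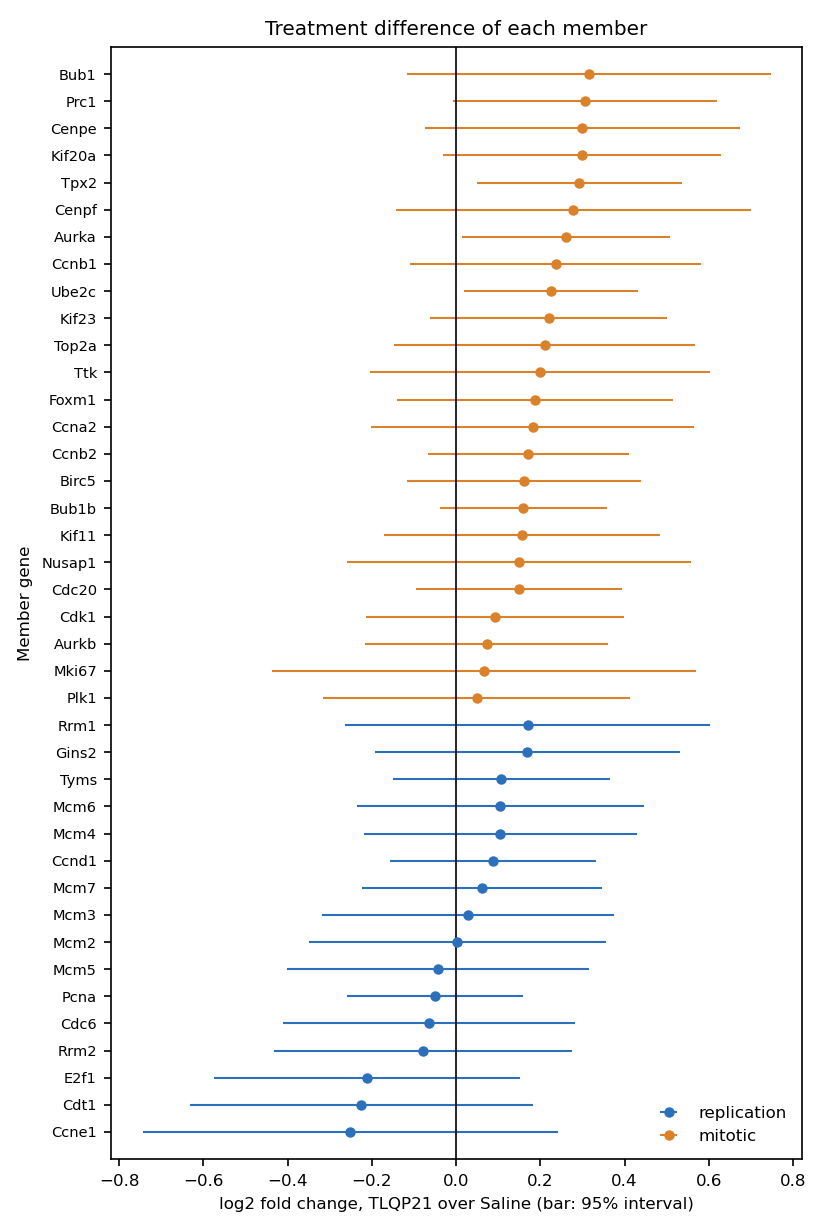
Log2 fold change (TLQP21 over Saline, x axis) of the 40 members, grouped by class, with 95% confidence intervals from edgeR's quasi-likelihood fit on 4 libraries per group. All 24 mitotic points lie to the right of 0, and the intervals of Tpx2, Ube2c and Aurka leave out 0; all 16 replication intervals include 0.

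Tpx2, Ube2c and Aurka were the 3 members with an unadjusted p under 0.05 in edgeR's quasi-likelihood test (0.024, 0.036 and 0.040), and in the same 3 genes the libraries of both groups did not overlap, TLQP21 being higher. Of all tested genes, 0.795% were higher at an unadjusted p under 0.05 and 0.811% were higher without overlap. Aurka encodes Aurora kinase A, which matures the spindle poles, and Tpx2 encodes the protein that activates it on spindle microtubules. Tpx2 (chr2:152847964-152895321, GRCm38) stood at 88.3, 73.6, 85.6 and 85.4 CPM in Saline 1 to Saline 4 and 88.8, 91.97, 114 and 113 CPM in TLQP21 1 to TLQP21 4. The lowest TLQP21 value lay just above the highest Saline value, and Saline 2 was lowest. Its log2 fold change was 0.29 (SE 0.11, 95% interval 0.049 to 0.54). Aurka (chr2:172356190-172370535) was at 33.5, 28.7, 36.6 and 36.1 CPM in Saline 1 to Saline 4 and 37.97, 36.7, 44.6 and 42.4 CPM in TLQP21 1 to TLQP21 4. The gap between the groups was again narrow, since TLQP21 2 and Saline 3 were nearly equal. Its log2 fold change was 0.26 (SE 0.11, interval 0.014 to 0.51).

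Among the genes of anaphase promotion, Ube2c encodes the ubiquitin-conjugating enzyme of the anaphase-promoting complex, and Cdc20 the activator of that complex. Ube2c (chr2:164769898-164778822) was counted at 93.2, 80.9, 72.5 and 90.1 CPM in Saline 1 to Saline 4 and 96.7, 97.1, 96.5 and 103 CPM in TLQP21 1 to TLQP21 4. TLQP21 1 to TLQP21 3 lay within 1 CPM of each other, whereas the Saline libraries were spread more widely. The log2 fold change was 0.23 (SE 0.093, interval 0.018 to 0.43). The span of Tnnc2 overlaps that of Ube2c on the opposite strand, and the strand setting of the counting is not given in the sources used here. Reads in any shared exon bases therefore cannot be assigned, and whether the exons overlap was not checked. Cdc20 differed by 0.15 (SE 0.11), with Elovl1 on its opposite strand.

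The 8 spindle, centromere and cytokinesis genes had the highest median of the groups of members, 0.29, and all 8 were above 0. Their median was 0.0044 among libraries with Xist (4 of 8 above 0) and 0.42 among those with Y-linked transcripts (8 of 8). Nusap1, Kif11, Cenpe, Cenpf and Prc1 had a transcript GC content of 41.8 to 43.3%. That is in the lowest quartile of genes, which was raised in TLQP21 4, as given below. Prc1, which bundles the microtubules of the central spindle, was at 50.7, 41.1, 55.9 and 46.1 CPM in Saline 1 to Saline 4 and 51.2, 50.8, 67.3 and 70.4 CPM in TLQP21 1 to TLQP21 4. TLQP21 3 and TLQP21 4 were the highest libraries, and the groups overlapped. Its log2 fold change was 0.31 (SE 0.14), and Rccd1 overlaps it on the other strand. Kif20a, a kinesin of cytokinesis, stood at 42.8, 30.7, 43.2 and 34.5 CPM in Saline 1 to Saline 4 and 37.7, 44.04, 53.4 and 50.8 CPM in TLQP21 1 to TLQP21 4. The same pair of TLQP21 libraries was highest, and its log2 fold change was 0.30 (SE 0.15). Cdc23 overlaps Kif20a on the opposite strand. The centromere proteins Cenpe and Cenpf differed by 0.30 and 0.28, the kinesins Kif23 and Kif11 by 0.22 and 0.16, and Nusap1, a microtubule-binding spindle protein, by 0.15. None of these 7 had an unadjusted p under 0.05, Prc1 coming nearest at 0.055 in edgeR's test.

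Of the mitotic kinases, Bub1 and Bub1b act in the spindle checkpoint that holds cells until every chromosome is attached. Bub1b was at 86.7, 74.6, 86.5 and 81.1 CPM in Saline 1 to Saline 4 and 84.9, 87.8, 102 and 92.4 CPM in TLQP21 1 to TLQP21 4. Saline 2 was the lowest library and TLQP21 3 the highest, with overlap between the groups. The log2 fold change was 0.16 (SE 0.089), or 0.10 without TLQP21 3, and that of Bub1 was 0.31 (SE 0.19), the largest fold change and 1 of the least precise. Ttk, which starts the same checkpoint, differed by 0.20. Aurkb and Birc5, the kinase and the survivin subunit of the chromosomal passenger complex, differed by 0.072 and 0.16. Plk1, polo-like kinase 1, differed by 0.049 (SE 0.16), the smallest of the mitotic values.

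The B-type cyclins bind Cdk1 to form the mitosis-promoting kinase, and Foxm1 is the transcription factor of the G2 and M phase programme. Ccnb1 was at 53.2, 44.4, 59.4 and 54.5 CPM in Saline 1 to Saline 4 and 50.5, 51.1, 72.5 and 75.2 CPM in TLQP21 1 to TLQP21 4. TLQP21 3 and TLQP21 4 were highest, Saline 2 was lowest, and the log2 fold change was 0.24 (SE 0.15). Without TLQP21 4 it was 0.13, and without TLQP21 3 it was 0.16. Cdk1 stood at 53.3, 45.7, 58.5 and 67.2 CPM in Saline 1 to Saline 4 and 56.1, 55.99, 72.8 and 54.9 CPM in TLQP21 1 to TLQP21 4. TLQP21 3 was highest and Saline 4 came next, and the log2 fold change was 0.093 (SE 0.14). Without TLQP21 3 it was -0.013, without Saline 2 it was 0.0061 and without Saline 4 it was 0.18. Foxm1 was at 47.1, 39.6, 48.4 and 61.1 CPM in Saline 1 to Saline 4 and 49.7, 48.4, 61.5 and 63.8 CPM in TLQP21 1 to TLQP21 4. The groups overlapped, and the log2 fold change was 0.19 (SE 0.15). It was 0.096 without Saline 2, 0.11 without TLQP21 4 and 0.30 without Saline 4. Ccnb2 and Ccna2 differed by 0.17 and 0.18, with Exosc9 opposite Ccna2.

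Mki67 encodes Ki-67, the antigen used to score proliferating cells in tissue sections, and Top2a was the member with the highest counts. Mki67 was at 202, 168, 309.6 and 201 CPM in Saline 1 to Saline 4 and 163, 197, 282 and 279.8 CPM in TLQP21 1 to TLQP21 4. Saline 3 was the highest and TLQP21 1 the lowest of all libraries, so the groups overlapped, and the log2 fold change was 0.066 (SE 0.23, interval -0.44 to 0.57). The value was 0.28 without Saline 3, and between -0.048 and -0.045 without Saline 2, TLQP21 3 or TLQP21 4. Top2a stood at 367, 271, 379 and 345 CPM in Saline 1 to Saline 4 and 319, 337, 437 and 484 CPM in TLQP21 1 to TLQP21 4. Here TLQP21 3 and TLQP21 4 were the highest and Saline 2 the lowest, and the log2 fold change was 0.21 (SE 0.16). It was 0.091 without TLQP21 4 and 0.12 without Saline 2.

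**Figure D2:**
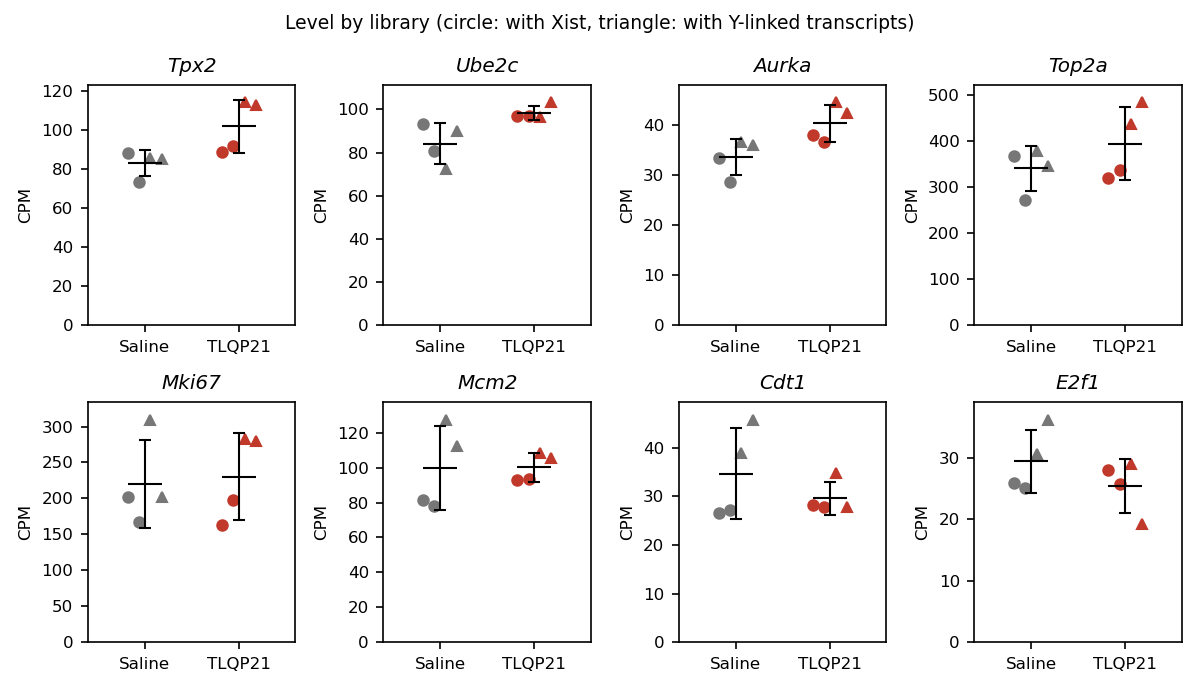
Level of named members in each library (y axis, CPM; circles are libraries with Xist and triangles libraries with Y-linked transcripts), with the group mean and SD of 4 libraries as bars. Tpx2, Ube2c and Aurka show no overlap between Saline (grey) and TLQP21 (red), whereas Top2a, Mki67, Mcm2, Cdt1 and E2f1 do.

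Among the replication members, the 6 MCM helicase subunits had log2 fold changes from -0.042 (Mcm5) to 0.11 (Mcm6), with Mcm4 at 0.10. Saline 2 was the lowest library for 6 of 6 and Saline 3 the highest for 4 of 6, as in Mcm2. Mcm2 was at 81.7, 78.1, 127 and 112 CPM in Saline 1 to Saline 4 and 92.7, 93.6, 109 and 106 CPM in TLQP21 1 to TLQP21 4. The Saline libraries spanned the whole TLQP21 range, and the log2 fold change was 0.0030 (SE 0.16, interval -0.35 to 0.36). Its sign changed without Saline 1, Saline 2, TLQP21 3 or TLQP21 4 (-0.099 to -0.028). Mcm3 and Mcm7 differed by 0.028 and 0.062, Cops6 and Ap4m1 being counted over Mcm7 on the other strand. Pcna stood at 234, 189.6, 238 and 232 CPM in Saline 1 to Saline 4 and 221, 211, 218 and 212 CPM in TLQP21 1 to TLQP21 4. Saline 2 was low and the other 7 libraries lay close together, with a log2 fold change of -0.050 (SE 0.093, interval -0.26 to 0.16). That value was -0.12 without Saline 2 and -0.018 without Saline 3.

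Of the loading factors, Cdt1 was at 26.7, 27.2, 39.02 and 45.8 CPM in Saline 1 to Saline 4 and 28.2, 27.9, 34.7 and 27.9 CPM in TLQP21 1 to TLQP21 4. Its highest values were those of Saline 3 and Saline 4, and the log2 fold change was -0.22 (SE 0.18, interval -0.63 to 0.18). Without Saline 4 that value was -0.068. Cdc6 differed by -0.064. Gins2, a GINS subunit overlapped by Gse1, was at 12.7, 10.2, 14.6 and 13.2 CPM in Saline 1 to Saline 4 and 13.3, 14.8, 17.2 and 11.6 CPM in TLQP21 1 to TLQP21 4. The groups overlapped, and the log2 fold change was 0.17 (SE 0.16). Without TLQP21 3 it was 0.067, and without Saline 2 it was 0.078.

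Ribonucleotide reductase (Rrm1 and Rrm2) and thymidylate synthase (Tyms) supply the nucleotides for replication. Rrm1 was at 114, 92.8, 146 and 129 CPM in Saline 1 to Saline 4 and 106, 118, 131 and 189 CPM in TLQP21 1 to TLQP21 4. TLQP21 4 was far above the other TLQP21 libraries, and the log2 fold change was 0.17 (SE 0.19). Without TLQP21 4 it was -0.035, without Saline 2 it was 0.063 and without Saline 3 it was 0.28. Tyms stood at 47.9, 37.6, 47.8 and 46.9 CPM in Saline 1 to Saline 4 and 44.03, 46.2, 47.02 and 56.9 CPM in TLQP21 1 to TLQP21 4. Saline 2 was low and the rest overlapped, with a log2 fold change of 0.11 (SE 0.12). It was 0.019 without TLQP21 4 and 0.030 without Saline 2. Rrm2 differed by -0.078.

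Ccnd1 and Ccne1 encode the cyclins that act before S phase, and E2f1 an activating E2F factor. Ccnd1, overlapped by Oraov1, was at 211, 203, 265 and 212 CPM in Saline 1 to Saline 4 and 214, 232, 258 and 244 CPM in TLQP21 1 to TLQP21 4. Saline 3 was highest, and the log2 fold change was 0.088 (SE 0.11), with values of 0.046 without TLQP21 3 and 0.18 without Saline 3. Ccne1 stood at 5.48, 6.48, 10.5 and 8.13 CPM in Saline 1 to Saline 4 and 6.98, 5.61, 7.37 and 5.71 CPM in TLQP21 1 to TLQP21 4. Saline 3 was again highest, with a log2 fold change of -0.25 (SE 0.22), and without Saline 3 it was -0.060. E2f1 was at 25.9, 25.1, 30.7 and 36.2 CPM in Saline 1 to Saline 4 and 27.98, 25.7, 28.99 and 19.2 CPM in TLQP21 1 to TLQP21 4. Saline 4 was the highest library and TLQP21 4 the lowest, and the log2 fold change was -0.21 (SE 0.16). Without Saline 4, and likewise without TLQP21 4, it was -0.10. No replication member had an unadjusted p under 0.05.

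The precision of these values can be stated by the intervals. All 16 replication intervals and 21 of 24 mitotic intervals included 0. For 31 of 40 members (77.5%) the whole interval lay within a 1.5-fold change in either direction, compared with 55.1% of all genes tested. Those genes were not matched to the members in count level, so the shares are not compared like with like. The upper bounds reached 1.68-fold for the mitotic members (Bub1) and 1.52-fold for the replication members (Rrm1). The lower bounds reached 0.738-fold (Mki67) and 0.597-fold (Ccne1). Differences within these bounds were not resolved with 4 libraries per group.

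**Figure D3:**
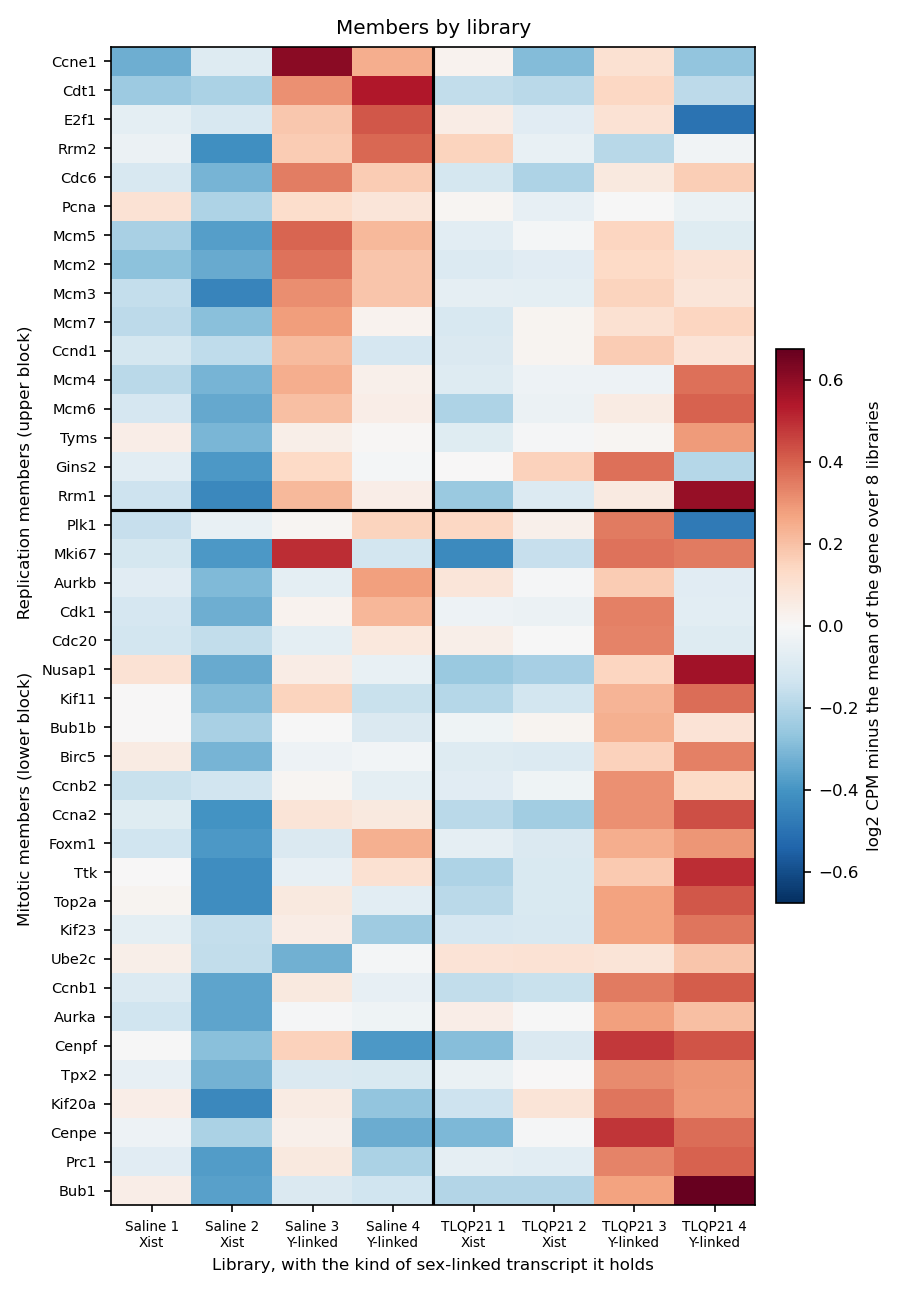
Level of each member (rows) in each library (columns) as the log2 CPM minus the mean of the gene over 8 libraries, on a colour scale around 0. Saline 2 is low for most members of both classes, Saline 3 and Saline 4 are high for replication members, and TLQP21 3 and TLQP21 4 for mitotic members.

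The classes ordered the libraries differently at the top but not at the bottom. Saline 2 was the lowest of 8 libraries for 13 of 16 replication and 17 of 24 mitotic members. Saline 3 or Saline 4 was the highest for 11 of 16 replication members but 2 of 24 mitotic members. TLQP21 3 or TLQP21 4 was the highest for 22 of 24 mitotic members and 5 of 16 replication members. The same counts were not made over all genes. TLQP21 4 and Saline 4 also deviated with GC content over all genes, as given below.

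Averaged over members, the mean log2 CPM of the mitotic genes was 5.93, 5.67, 5.99 and 5.92 in Saline 1 to Saline 4 and 5.86, 5.91, 6.26 and 6.24 in TLQP21 1 to TLQP21 4. TLQP21 3 and TLQP21 4 were the highest, and the other TLQP21 libraries lay within the Saline range. The group means were 5.88 ± 0.14 and 6.07 ± 0.21 (SD, n = 4). For the replication genes the level was 5.89, 5.73, 6.28 and 6.18 in Saline 1 to Saline 4 and 5.95, 5.96, 6.11 and 6.08 in TLQP21 1 to TLQP21 4. The Saline libraries, at 6.02 ± 0.25, included both the highest and the lowest of the 8, and TLQP21 was at 6.03 ± 0.081. Per library, the mitotic level minus the replication level was 0.035, -0.052, -0.29 and -0.25 in Saline 1 to Saline 4 and -0.090, -0.054, 0.15 and 0.16 in TLQP21 1 to TLQP21 4. It averaged -0.14 ± 0.16 in Saline and 0.042 ± 0.13 in TLQP21, a difference of 0.18. Saline 1 lay above TLQP21 1 and TLQP21 2, so the groups overlapped, and no test was made because the genes were chosen with results of these libraries known.

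**Figure D4:**
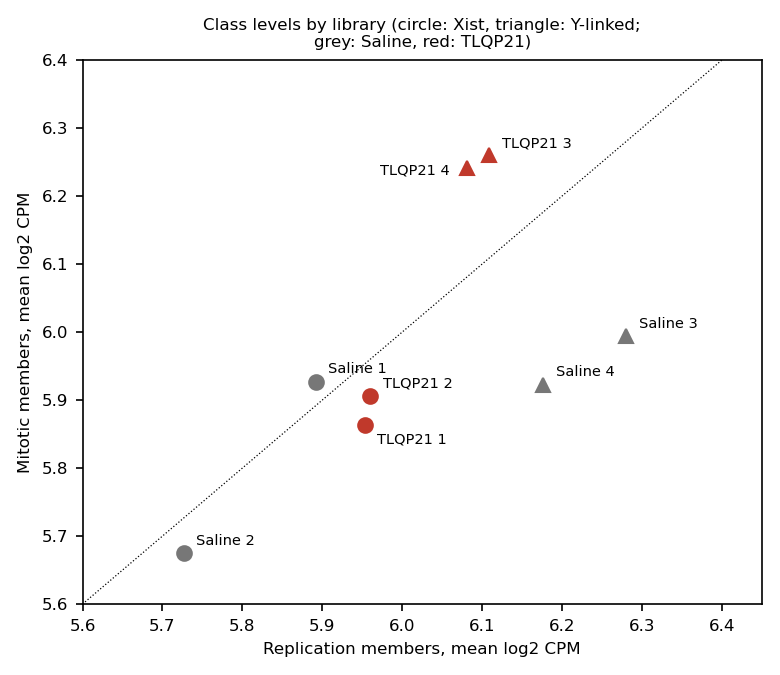
Mean log2 CPM of the 16 replication members (x axis) and of the 24 mitotic members (y axis), 1 point per library, with the line of equal levels (circles are libraries with Xist, triangles those with Y-linked transcripts). TLQP21 3 and TLQP21 4 lie above the line, Saline 3 and Saline 4 below it, and the 4 libraries with Xist near it.

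The values of the classes were further apart among the libraries with Y-linked transcripts than among those with Xist. Among the 4 libraries with Y-linked transcripts, the median log2 fold change (TLQP21 over Saline) was 0.30 for mitotic members, with 22 of 24 above 0, and -0.13 for replication members, with 6 of 16 above 0. Among the 4 libraries with Xist, it was 0.083 for mitotic members (18 of 24 above 0) and 0.12 for replication members (16 of 16 above 0). The difference of 0.18 in mitotic minus replication level was -0.063 with Xist and 0.43 with Y-linked transcripts. Each of these values rests on 2 libraries per group. The treatment difference of several marker lists also varied between the kinds. Among libraries with Xist, 8 of 8 acinar genes were above 0 (median log2 fold change 0.23), and among those with Y-linked transcripts 0 of 8 (median -1.04). Fibroblast markers were above 0 for 6 of 7 (median 0.28) and 1 of 7 (-0.22), and endothelium markers for 4 of 4 (0.32) and 1 of 4 (-0.17). Epithelial markers were above 0 for 6 of 8 in both kinds (0.025 and 0.15). B and plasma cell markers were above 0 for 0 of 6 (-0.67) and 2 of 6 (-0.15). Erythroid markers were above 0 for 2 of 8 (-0.51) and 0 of 8 (-1.25). Macrophage markers were so for 3 of 5 (0.038) and 0 of 5 (-0.50), and neutrophil markers for 1 of 5 (-0.52) and 0 of 5 (-0.90). In edgeR's test of a different treatment effect between the kinds, 2 erythroid, 2 hepatocyte and 1 macrophage marker had an unadjusted p under 0.05. No acinar, fibroblast or endothelium marker did. Acinar markers summed to 11444.5 and 44278 CPM in Saline 3 and Saline 4, and 18729 and 8784 CPM in TLQP21 3 and TLQP21 4. Fibroblast markers summed to 5459 and 11187 CPM, and 6409 and 5589 CPM, in the same libraries. Erythroid markers summed to 1355 and 804 CPM in Saline 3 and Saline 4, and 338 and 635 CPM in TLQP21 3 and TLQP21 4. The part of these cells in the split of the classes was not tested. When the treatment effect was tested for a difference between the kinds, 0 members and 0 of 18238 genes (0%) were called, and the smallest adjusted p of edgeR's quasi-likelihood test was 0.842. At an unadjusted p under 0.05, 5 of 40 members were counted, compared with 4.8% of all genes. These were Bub1 (0.66 larger on the log2 scale with Y-linked transcripts), Cenpe (0.60 larger), Rrm2 (-0.66), Mcm5 (-0.52) and Mcm2 (-0.39).

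**Figure D5:**
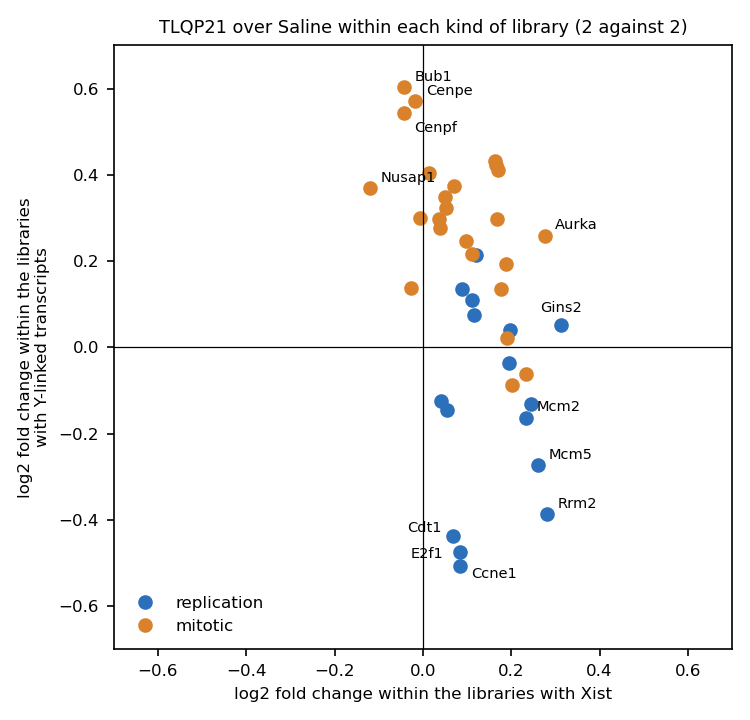
Log2 fold change (TLQP21 over Saline) of each member among libraries with Xist (x axis) and among libraries with Y-linked transcripts (y axis), with 2 libraries per group in each. All 16 replication members lie to the right of 0 on the x axis and 6 of 16 above 0 on the y axis, whereas 18 of 24 mitotic members lie to the right of 0 and 22 of 24 above it.

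Most members differed more between the kinds of library than between the treatments. With treatment as a covariate, libraries with Y-linked transcripts were above those with Xist for 16 of 16 replication members (median log2 difference 0.33, range 0.072 to 0.46) and 23 of 24 mitotic members (median 0.27, range -0.027 to 0.56), compared with 52.2% of all genes. This difference exceeded that of treatment in size for 14 of 16 replication and 15 of 24 mitotic members. The same count over all genes was not made. Between the kinds, 2480 of 18238 genes had an unadjusted p under 0.05 in edgeR's test, compared with 558 between the treatments. Among Saline libraries the mitotic level was 5.93 and 5.67 with Xist, and 5.99 and 5.92 with Y-linked transcripts. Between the kinds no member was called (smallest adjusted p 0.121, Ccna2, edgeR's quasi-likelihood test), and 0.373% of all genes were. Xist and the Y-linked genes that defined the kinds were not left out of that share. At an unadjusted p under 0.05 in the same test were 22 of 40 members, compared with 13.6% of all genes. Saline 2, the lowest library for most members and the only one with hepatocyte markers above 9.27 CPM, is 1 of the 4 libraries with Xist. Without it the mitotic median for TLQP21 over Saline was 0.12 (22 of 24 above 0) and the replication median -0.097 (6 of 16 above 0).

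Deviations of several libraries followed base composition, most widely in TLQP21 4. Over 12701 genes with a mean log2 CPM over 2, the median deviation of TLQP21 4 from the mean of the libraries was 0.27, 0.14, -0.047 and -0.32 from the lowest to the highest quartile of transcript GC content. In Saline 4 these medians ran the other way (-0.11, -0.040, 0.033 and 0.13), as they did in TLQP21 1 (-0.11, -0.046, 0.0043 and 0.045). In the other 5 libraries they lay between -0.077 and 0.097. Mitotic members had a lower GC content (median 47.0%, range 41.0 to 56.0%) than replication members (median 51.3%, range 43.3 to 58.3%), and all genes a median of 49.6%. In TLQP21 4, Bub1 (GC 41.0%) and Rrm1 (43.3%) deviated by 0.67 and 0.59, and Plk1 (56.0%) and E2f1 (58.3%) by -0.48 and -0.50. Over the 12701 genes, the median log2 fold change (TLQP21 over Saline) was 0.048, 0.040, 0.0031 and -0.063 from the lowest to the highest quartile. The lowest quartile ran from 31.0 to 44.8% GC, and GC differences within a quartile are not adjusted by its median. When each gene was taken relative to genes of the same quartile, the mitotic median was 0.17 with 24 of 24 above 0. The replication median was then 0.012 with 8 of 16 above 0, and the difference in class level was 0.17. It was 0.065, 0.0082, -0.25 and -0.17 in Saline 1 to Saline 4 and -0.0090, 0.023, 0.20 and 0.13 in TLQP21 1 to TLQP21 4 on that scale, so the groups still overlapped.

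Cell-type markers were set beside the members, with 0 called in any list. Epithelial markers were above 0 for 6 of 8 genes, and the lowest TLQP21 sum (6486 CPM) lay within the Saline range. Leukocyte markers were below 0 for 5 of 5 genes, with sums of 756 to 847 CPM in Saline and 589 to 854 CPM in TLQP21, and macrophage markers for 5 of 5 (1141 to 1262 and 813 to 1355 CPM). Erythroid markers summed to 472 to 1355 CPM in Saline and 304 to 635 CPM in TLQP21, with 8 of 8 genes below 0 and the highest sum in Saline 3. Acinar markers ranged from 9291 to 44278 CPM in Saline and 8784 to 24596 CPM in TLQP21, Saline 4 being highest. Fibroblast markers summed to 5459 to 11187 CPM and 5589 to 8067 CPM (2 of 7 above 0), and neutrophil markers to 209.96 to 750.04 CPM and 155 to 304 CPM (0 of 5 above 0). B and plasma cell markers summed to 104 to 244 CPM and 86.5 to 219.97 CPM (0 of 6 above 0), T cell markers to 41.8 to 62.1 CPM and 44.9 to 67.9 CPM (4 of 6), and endothelium markers to 145 to 216 CPM and 147 to 208 CPM (4 of 4). At an unadjusted p under 0.05 in edgeR's test were 3 erythroid, 2 leukocyte, 2 neutrophil, 1 macrophage and 1 T cell marker. The 5 hepatocyte markers under the same cut were high in Saline 2 alone. Of all genes tested, 558 of 18238 were under it. The part of these cells in the members' values was not tested.

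Genes of the same pathways outside the set were read from fixed lists. Of 45 other mitosis genes, 44 were above 0, with a median log2 fold change of 0.17, and 0 were called. At an unadjusted p under 0.05 in edgeR's test were 3 of them, compared with 558 of 18238 genes tested. The 4 with the smallest unadjusted p were Dlgap5, a spindle protein (0.29, 35.1 ± 2.45 CPM in Saline and 42.8 ± 6.397 CPM in TLQP21), the kinesin Kif2c (0.28, 23.7 ± 2.09 CPM in Saline and 28.7 ± 3.28 CPM in TLQP21), the phosphatase Cdc25c (0.43) and Racgap1 of the central spindle (0.25). Of these, only Kif2c had groups without overlap. Of 45 other replication genes, 36 were above 0, with a median of 0.076, and 0 were called (0 at an unadjusted p under 0.05). Their leading genes were the GINS subunit Gins4 (0.24), the polymerase subunit Pole2 (0.32), Dbf4, which activates the Cdc7 kinase (0.17), and the origin protein Orc3 (0.26). The other mitosis level minus the other replication level was 0.26, 0.24, 0.20 and 0.22 in Saline 1 to Saline 4 and 0.23, 0.23, 0.46 and 0.42 in TLQP21 1 to TLQP21 4. TLQP21 3 and TLQP21 4 stood above the other 6 libraries, which lay between 0.20 and 0.26.

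Regulators of the cycle gave no common direction. Above 0 were 18 of 30 control genes (median 0.010) and 4 of 8 inhibitors of cyclin-dependent kinases (median 0.0010). None was called, and 1 of each list had an unadjusted p under 0.05 (E2f2 and Cdkn1a), compared with 558 of 18238 genes tested. E2f2, another activating E2F factor, was at 16.9, 15.2, 32.4 and 26.9 CPM in Saline 1 to Saline 4 and 15.4, 14.5, 14.9 and 13.1 CPM in TLQP21 1 to TLQP21 4. Saline 3 and Saline 4 were highest, and the log2 fold change was -0.66 (SE 0.23), at -0.10 among libraries with Xist and -1.08 among those with Y-linked transcripts. Cdkn1a encodes p21, which halts the cycle on p53 activation. It stood at 85.7, 84.04, 70.1 and 117 CPM in Saline 1 to Saline 4 and 82.1, 68.4, 61.1 and 57.9 CPM in TLQP21 1 to TLQP21 4. The groups overlapped, with a log2 fold change of -0.41 (SE 0.16, unadjusted p 0.034 and adjusted p 0.9999 in edgeR's test). Other leading genes were the repressive E2F factor E2f7 (0.31), cyclin D3 (-0.28), the MuvB subunit Lin9 (0.26), Cdkn2d (-0.26), Cdkn3 (0.14) and Cdkn1b (-0.12).

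On a scale per length (mean CPM per kb of the deposited gene length, over 8 libraries), the replication members ranged from 2.64 (Ccne1) to 91.4 (Pcna) with a median of 16.5. The mitotic members ranged from 3.12 (Ttk) to 40.8 (Top2a) with a median of 14.6. Ccnd1, at 48.8, was second among the replication members, and Ube2c, at 35.1, second among the mitotic members. The 6 MCM subunits lay between 14.4 (Mcm2) and 39.6 (Mcm6) CPM per kb. With the length of the longest GENCODE M21 transcript in place of the deposited length, the medians were 25.3 for replication and 18.8 for mitotic members. The MCM subunits then lay between 26.9 (Mcm5) and 49.6 (Mcm7), with Mcm2 at 28.6, so the order among them depends on the length used.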

How the data were processed

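Tumour RNA in 8 libraries (4 Saline, 4 TLQP21) was sequenced as paired ends of 150 bp from NEBNext Ultra libraries, per the labels' protocols. The authors deposited raw read counts per gene, not normalized, with a gene length and position for each gene. HISAT2 2.0.5, featureCounts 1.5.0-p3, DESeq2 1.32.0 and build GRCm38 (mm10) are named per the submitters' processing notes. The strand setting and annotation release are not given in the sources used here, so counts of overlapping genes are uncertain. By gene span, introns included, 16 members have another counted gene over them, and overlap of exons was not checked. Totals were 28358465 to 33536087 counts per library, and no pair of libraries was alike (lowest chi-square per degree of freedom 19.0).

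The groups were taken from the sample titles. edgeR 4.0.16 in R 4.3.3 was run on all genes, with its filter on low counts by group (18238 kept, 40 of 40 members among them), TMM scaling and a quasi-likelihood test between the groups that had no covariate. Benjamini-Hochberg adjustment ran over all genes, and 0.05 was the threshold. Intervals are 95% intervals of the fitted log2 fold change, and class levels are means of log2 CPM with a prior count of 2. The kind of library and its interaction with treatment were fitted in further edgeR models, and GC content was taken from the longest GENCODE M21 transcript (GRCm38). Gene positions are as deposited, 1-based. The edgeR script was tested on simulated data. Alternatives were DESeq2 1.42.0, another scaling, filter and prior count, acinar genes left out, a replicate block and each library left out. Added after seeing the data were fits within each kind of library, values relative to GC quartiles, and levels per length of the longest transcript.

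The members, lists and tests were chosen with earlier results of these data known. Given in full are the 6 members per class with the smallest unadjusted p, plus Mki67, Top2a, Pcna, Mcm2, Ccnd1, Ccne1, E2f1, Cdk1, Ccnb1 and Foxm1, and up to 4 genes per pathway list. The printed promoters were chosen after their motifs were seen.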

Additional observations from a re-analysis of the deposited data

Results flagged for a closer look

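In 7 of 86 groups of 4 values looked at, 1 library stood far from the other 3, by the gap to its neighbour over the range of the group. Chance gives this in about 1 in 20 groups. Ube2c was highest in TLQP21 4 at 103 CPM, against 96.5 to 97.1 CPM in the other TLQP21 libraries (gap over range 0.912). Cdk1 was highest in TLQP21 3 at 72.8 CPM, against 54.9 to 56.1 CPM in the other TLQP21 libraries (gap over range 0.931). Cdt1 was highest in TLQP21 3 at 34.7 CPM, against 27.9 to 28.2 CPM in the other TLQP21 libraries (gap over range 0.958). Tyms was lowest in Saline 2 at 37.6 CPM, against 46.9 to 47.9 CPM in the other Saline libraries (gap over range 0.897). Ccnd1 was highest in Saline 3 at 265 CPM, against 203 to 212 CPM in the other Saline libraries (gap over range 0.868). Mcm4 was highest in TLQP21 4 at 138 CPM, against 100.3 to 104 CPM in the other TLQP21 libraries (gap over range 0.898). Pcna was lowest in Saline 2 at 189.6 CPM, against 232 to 238 CPM in the other Saline libraries (gap over range 0.883). The Cdk1 fold change lost its direction without the library that stood apart, and the low libraries of Tyms and Pcna were Saline 2, which was also low for most other members.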

How the results depend on the processing

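In every edgeR setting tried, 0 genes were called for TLQP21 against Saline (347 to 1153 at an unadjusted p under 0.05). DESeq2 called 4 (745 unadjusted), and the cause was not tested. With each library left out, the mitotic median ranged from 0.12 to 0.26, the replication median from -0.097 (without Saline 2) to 0.14 (without Saline 3), and the difference in class level from 0.13 to 0.24. That difference was -0.063 in the 4 libraries with Xist and 0.43 in the 4 with Y-linked transcripts, fits with 2 libraries per group that were chosen after seeing the data. The cause was not tested.

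Over 340 values of 20 named members under alternatives, 17 changed direction, 0 passed the threshold and 12 members kept their direction throughout. With only the libraries with Xist, the log2 fold change was -0.027 for Mki67, 0.084 for E2f1, 0.068 for Cdt1, 0.085 for Ccne1 and 0.040 for Pcna. Mcm2, at 0.0030 in the reported fit, was -0.00083 with DESeq2 size factors, -0.0046 with acinar genes left out and -0.16 with only the libraries with Y-linked transcripts. With 1 library left out, the log2 fold change ranged from -0.013 to 0.18 for Cdk1, from -0.048 to 0.28 for Mki67, from -0.035 to 0.28 for Rrm1 and from -0.099 to 0.14 for Mcm2.

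Correlations between libraries did not single out those of the same replicate number as pairs. The correlations of same-numbered libraries ran from -0.053 to 0.27, with 3 of 4 over 0.1, and 1 of 8 libraries correlated best with its own number. In the other treatment group, the best match of every library was of its own kind (Xist or Y-linked transcripts). Whether same-numbered libraries shared a day or a cage cannot be told from these values. With the replicate number as a block, 0 genes were called (549 unadjusted), the mitotic median was 0.19 and the replication median 0.042. The lowest count of a member in a library was 161, and what sets the spread between libraries was not tested.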
